A study of Mus musculus with 6 samples.

Results

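Transcripts of 9 genes that set the balance between survival and death of a cell were compared between control and Slc11a2-deleted macrophages on their way to becoming osteoclasts, the cells that resorb bone. The genes were chosen by name, with earlier results of these data known. Bcl2, Bcl2l1, Mcl1 and Bcl2a1d encode survival proteins, and Bax, Bak1, Bcl2l11, Bid and Casp8 encode proteins that promote death. All 9 were found among the 26699 genes of the deposited files, and all 9 passed the filter on low counts. Primary macrophages were grown from hindlimb marrow of 8-week-old mice in 10 ng/mL M-CSF, which macrophages need to grow and survive. They were then kept in 30 ng/mL M-CSF with 50 ng/mL RANKL, the cytokine that drives osteoclast formation, for 48 hours. Control cells had the genotype Slc11a2flox/flox, and cKO cells had the genotype LysmCre-Slc11a2flox/flox. There were 3 libraries of polyadenylated RNA per genotype, and all 6 carried the floxed alleles, M-CSF and RANKL. The lysozyme M promoter that drives Cre is active in myeloid cells. Since the controls lacked Cre, what Cre or its place in the Lyz2 locus does cannot be told apart from loss of Slc11a2, which encodes the iron transporter DMT1. The sources used here do not say whether libraries came from separate mice or cultures. The p-values thus rest on spread among libraries that may be technical.

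BCL2 proteins decide whether the outer membrane of the mitochondrion stays closed. BAX and BAK1 form pores in it, the survival proteins hold them back, and BH3-only proteins such as BIM (from Bcl2l11) and BID relieve that restraint through a short helix, the BH3 region. Cytochrome c leaks through the pores and starts a chain of proteases called caspases, while caspase 8 starts the chain from death receptors at the cell surface and also cleaves BID. Osteoclasts are short-lived cells, and BIM, MCL1 and BCL-xL (from Bcl2l1) are among the proteins known to govern their lifespan.

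The contact that joins the 2 sides is small enough to show. The coding sequences of GENCODE release M21 (GRCm38, the assembly also called mm10) were searched in frame for the core of a BH3 region, a leucine codon followed by 3 codons of any kind and then a glycine and an aspartate codon. The windows below run 5′ to 3′ along the coding strand from the leucine codon, and capitals mark the glycine and aspartate codons.
Bcl2: ctccgccgggctGGGGATgacttctct
Bcl2l1: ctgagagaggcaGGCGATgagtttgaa
Mcl1: ctgcggcgcgtgGGCGACggcgtgcag
Bax: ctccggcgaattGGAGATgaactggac
Bak1: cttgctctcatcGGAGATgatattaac
Bcl2l11: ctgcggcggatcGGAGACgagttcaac
Bid: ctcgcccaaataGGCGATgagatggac
The core was found once in each of these 7 genes, survival and death genes alike. It was not found in Bcl2a1d or Casp8. Of 21504 coding genes, 13.3% held it at least once, so a match is a description of these letters and no proof of a BH3 region.

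The libraries held 49720701 to 57797282 counts each, and the 9 genes together took 49257 to 63084 of them. Slc11a2 (ENSMUSG00000023030, mm10 chromosome 15, 100387898 to 100424092) was lower in every cKO library. Its levels were 119, 109.6 and 118 CPM (counts scaled to a common library total) in the control libraries against 78.3, 82.8 and 87.4 CPM in the cKO libraries, replicates 1 to 3, with a log2 fold change of -0.48 and a standard error of 0.06 (edgeR's quasi-likelihood test, Benjamini-Hochberg adjusted p = 0.00219). Counts per gene do not resolve the floxed exons and do not measure how complete the deletion was. Osteoclast markers summed to 11787 to 15309 CPM in control and 8535 to 12212 CPM in cKO libraries, and macrophage markers to 6431 to 6947 and 6219 to 6727 CPM, so both labelled cell states were present. Of 10 osteoclast markers, 10 had a negative log2 fold change and 0 passed edgeR's test (3 at an unadjusted p below 0.05). Neutrophil markers summed to 201 to 232 CPM in the controls and 269 to 303 CPM in cKO libraries, and monocyte markers to 38.7 to 41.5 and 54.0 to 62.4 CPM. Most of the neutrophil sum was Mmp8. Mmp8 averaged 194 ± 17.3 CPM (control) against 229 ± 24.9 CPM (cKO; SD, n = 3 each). The genotypes overlapped for Mmp8, and a difference of 0.24 on the log2 scale did not pass (edgeR adjusted p = 0.19). Of 10 neutrophil markers tested 4 passed edgeR's test, all higher (Ngp, Ltf, S100a8 and S100a9), while Mpo and Prtn3 had negative values (-0.82 and -1.48) and did not pass. The 4 that passed were far less abundant, with means of 2.89 to 7.79 CPM (control) and 5.31 to 20.8 CPM (cKO). The call on S100a8 was lost when any 1 of control replicates 1, 2 and 3 or either of cKO replicates 1 and 2 was left out (adjusted p up to 0.186). Of 4 monocyte markers 1 passed, the receptor gene Ccr2, which was higher. Markers of dividing cells summed to 319.5 to 364 and 394 to 435 CPM, with 1 of 7 passed, Mki67, higher in cKO cells by 0.49 on the log2 scale (edgeR adjusted p = 0.00753, and up to 0.0815 without control replicate 1, control replicate 3 or cKO replicate 1, each of which ends the call). Stromal and endothelial markers summed to 3351 to 3916 and 3150 to 5059 CPM. Summed markers of lymphocytes, erythroid cells, and dendritic and mast cells stayed at or below 1.22 CPM in each library, with Ms4a1 and Cd3e at 3 reads or fewer. In bulk RNA, fewer cells of a type and less RNA per cell cannot be told apart, and the part of these marker differences in the values below was not tested.

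None of the 9 genes passed edgeR's quasi-likelihood test at an adjusted p of 0.05, where 2.42% of the 16843 genes tested did (1.36% higher and 1.06% lower in cKO cells). At an unadjusted p below 0.05 there were 3, Casp8 and Mcl1 lower and Bcl2l11 higher in cKO cells, against a background of 17.2% of tested genes (8.38% higher and 8.79% lower). DESeq2 called 1 of the 9, Casp8, and 5.19% of all genes. The libraries of the 2 genotypes did not overlap for Casp8 and Bcl2l11, and the same held for 22.5% of tested genes (11.1% higher and 11.4% lower), a share like that of the members. The differences were small. The 9 log2 fold changes ran from -0.22 to 0.16 with a median of -0.15, while all genes tested had a median of 0.00149 and a median size of 0.15. The 4 survival genes all had negative values, with a median of -0.18, and of the 5 death genes 3 were negative and 2 positive, with a median of -0.07. Negative values made up 49.6% of all genes tested. On a wider list of survival genes, which includes the same 4 members, 5 of 7 tested were negative and 2 positive. Outside the members, Bcl2a1a was negative (-0.68), and Bcl2l2 and Bcl2a1b were positive, at 0.02 and 0.07. The sign of a few members was not fixed: Bcl2l1 was at 0.02 without cKO replicate 3, Bak1 at 0.01 with a trend of fold change with gene length removed, and Bid at -0.04 without cKO replicate 2.

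**Figure D1:**
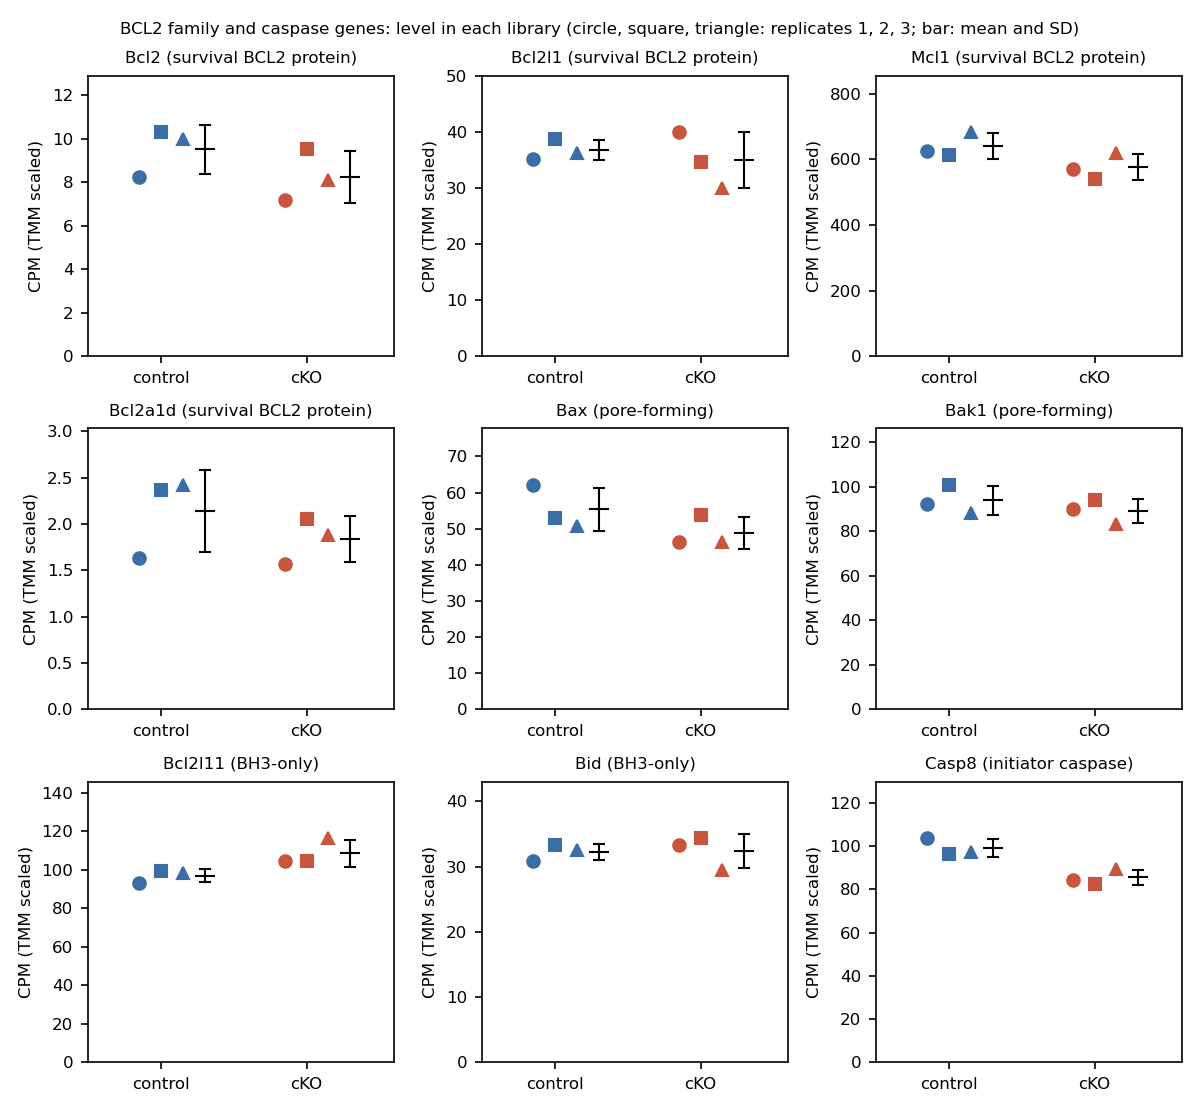
Levels of the 9 genes in CPM after TMM scaling, 1 panel per gene, with 1 point per library and the mean and SD of each genotype (n = 3). The control and cKO points are apart only for Bcl2l11, higher in cKO, and Casp8, lower in cKO.

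Mcl1 encodes MCL1, a survival protein that is made and destroyed quickly, and per transcript length it was by far the most abundant of the 9. The gene (ENSMUSG00000038612, chromosome 3, 95658788 to 95663176, plus strand) stood at 625, 612 and 684 CPM in the control replicates 1 to 3. In cKO replicates 1 to 3 it stood at 570, 541 and 621 CPM. The cKO libraries lay towards the lower end, but cKO replicate 3 was above control replicate 2, so the genotypes overlapped. The mean was 640 ± 38.3 CPM in the controls and 577 ± 40.3 CPM in the cKO cells (SD, n = 3 each). Its log2 fold change was -0.15 ± 0.07 (SE) with a 95% interval of -0.30 to -0.00046, and edgeR's adjusted p was 0.29. The interval therefore allows a fall of 18.7% as well as almost no difference. The value was -0.10 without control replicate 3 and with the length trend removed.

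Bcl2l1 encodes BCL-xL, the survival protein that guards many mature cells. It stood at 35.3, 38.9 and 36.3 CPM in control replicates and at 40.1, 34.8 and 30.1 CPM in the cKO replicates 1 to 3 (ENSMUSG00000007659, chromosome 2, 152780668 to 152831728, minus strand). The cKO libraries held both the highest and the lowest of the 6 values, and their SD of 4.99 CPM was wider than the 1.82 CPM of the control libraries. A log2 fold change of -0.07 had a 95% interval of -0.28 to 0.14 (edgeR adjusted p = 0.755). It was -0.18 without cKO replicate 1.

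Bcl2 itself, the founding survival gene of the family, was the least abundant of the 9 per transcript length. It stood at 8.22, 10.3 and 9.97 CPM in the controls and at 7.16, 9.52 and 8.09 CPM in the cKO replicates 1 to 3 (ENSMUSG00000057329, chromosome 1, 106538178 to 106714274, minus strand). The lowest value was in cKO replicate 1, and the genotypes overlapped. The log2 fold change of -0.20 had a standard error of 0.15 and a 95% interval of -0.52 to 0.11 (edgeR adjusted p = 0.524). It was -0.11 without cKO replicate 1 and -0.32 without cKO replicate 2.

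Bcl2a1d, 1 of several copies of the survival gene A1, which NF-kB is known to switch on in myeloid cells, rested on few reads. Its counts were 85, 136 and 139 in control and 79, 115 and 100 in cKO replicates 1 to 3, or 2.14 ± 0.442 and 1.83 ± 0.248 CPM (SD, n = 3 each). The lowest library of both genotypes was replicate 1, and the ranges overlapped. A log2 fold change of -0.22 with a 95% interval of -0.76 to 0.31 made it the least precise of the 9 (edgeR adjusted p = 0.695). It was -0.12 without cKO replicate 1, -0.38 without control replicate 1 and -0.10 with the length trend removed.

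Bcl2a1d cannot be read alone, because its copies on chromosome 9 are nearly the same sequence. Bcl2a1d lies at 88723285 to 88731914 on the minus strand, Bcl2a1a at 88956900 to 88962419 and Bcl2a1b at 89199209 to 89207827 on the plus strand (mm10). Over 519 coding bases Bcl2a1d differed from Bcl2a1a at 7 and from Bcl2a1b at 6 positions. The first 90 coding bases hold 6 of the 12 positions at which any of the 3 copies differ, shown in capitals. They were chosen as an in-frame stretch of this length with the most such positions. Even there, little tells a read of one copy from another.
Bcl2a1a: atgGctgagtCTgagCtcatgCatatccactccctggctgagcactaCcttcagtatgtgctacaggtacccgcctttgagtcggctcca
Bcl2a1b: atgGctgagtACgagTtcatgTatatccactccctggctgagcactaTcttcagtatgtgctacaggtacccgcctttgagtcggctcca
Bcl2a1d: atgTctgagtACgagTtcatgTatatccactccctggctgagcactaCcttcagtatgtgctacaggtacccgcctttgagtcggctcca
Of all stretches of 100 bases in the Bcl2a1d transcript, 54.7% were also found in another copy, and of those of 150 bases 30.3% were. The sources used here do not say how reads that match several copies were counted, so the split between copies is uncertain.

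Most A1 reads were assigned to Bcl2a1b, which took 72.6 ± 0.181% of the reads of the 3 copies in control and 79.3 ± 1.03% in cKO libraries (SD, n = 3 each). Bcl2a1a took 15.9 ± 2.29% and 10.4 ± 1.39%, and Bcl2a1d took 11.5 ± 2.47% and 10.3 ± 0.973%. In each library the 95% Wilson interval of a share covers counting error only. For Bcl2a1b it ran from 69.9% to 75.5% in control replicate 1 and from 75.8% to 81.3% in cKO replicate 1. The share of Bcl2a1b was higher in each cKO library than in any control library, and the share of Bcl2a1a was lower. The level of Bcl2a1b itself overlapped between genotypes, at 13.7, 13.4 and 13.5 CPM in the controls and 13.2, 16.2 and 13.1 CPM in the cKO replicates 1 to 3, with a log2 fold change of 0.07 (edgeR adjusted p = 0.819). Bcl2a1a itself stood at 3.50, 2.70 and 2.70 CPM in the controls and at 2.00, 1.88 and 1.65 CPM in the cKO replicates 1 to 3, again without overlap. Its log2 fold change was -0.68 with a 95% interval of -1.15 to -0.22 and did not pass edgeR's test (adjusted p = 0.127). With the copies summed there was no such gap: the sum was 18.9, 18.4 and 18.6 CPM in the controls and 16.8, 20.2 and 16.6 CPM in the cKO replicates 1 to 3. The summed copies gave a log2 fold change of -0.06 ± 0.10 (SE; edgeR adjusted p = 0.798).

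**Figure D2:**
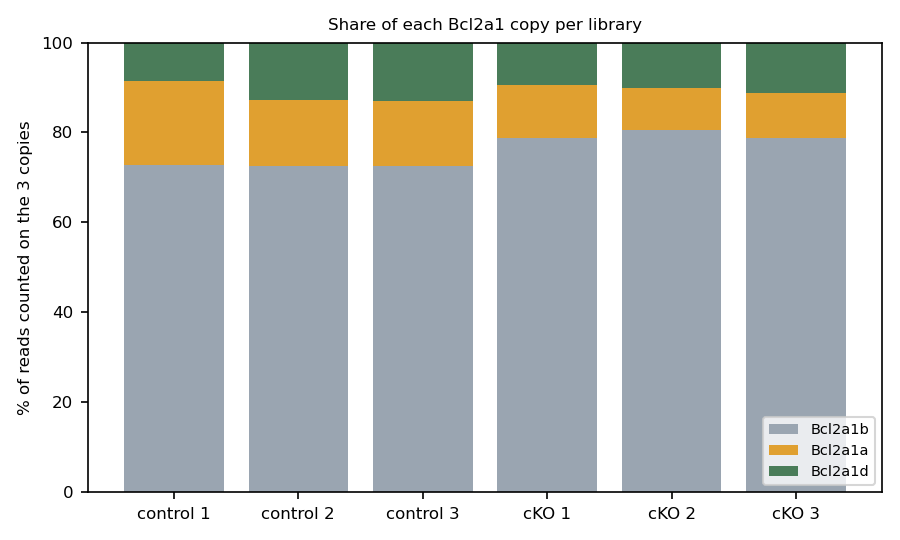
Reads assigned to each A1 copy, per library. Bcl2a1b takes most reads in each library, and its share is 72.5% to 72.8% in control and 78.7% to 80.5% in cKO libraries.

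Bax encodes a pore-former that moves from the cytosol to mitochondria when a cell is stressed. The gene (ENSMUSG00000003873, chromosome 7, 45461697 to 45466898, minus strand) stood at 62.2, 52.96 and 50.8 CPM in the control replicates 1 to 3. In cKO replicates 1 to 3 it stood at 46.4, 53.8 and 46.2 CPM. Control replicate 1 was the highest library, and cKO replicate 2 lay among the controls. The log2 fold change was -0.18 ± 0.09 (SE) with a 95% interval of -0.37 to 0.01 (edgeR adjusted p = 0.325). Without control replicate 1 it was -0.09, and with the length trend removed it was -0.07.

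Bak1 encodes the pore-former that sits in the mitochondrial membrane already in healthy cells. It stood at 92.4, 101 and 88.1 CPM in the controls and at 89.8, 94.2 and 83.4 CPM in the cKO replicates 1 to 3 (ENSMUSG00000057789, chromosome 17, 27019810 to 27029009, minus strand). The highest value was in control replicate 2 and the lowest in cKO replicate 3, and the ranges overlapped. A log2 fold change of -0.07 had a 95% interval of -0.22 to 0.08 (edgeR adjusted p = 0.639). It was -0.02 without control replicate 2. The gene lies wholly within Gm50253 on the opposite strand, which had 330 to 433 reads against 4447 to 5784 for Bak1.

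Bcl2l11 encodes BIM, a BH3-only protein known to bring about the death of osteoclasts, and it was the member with the largest positive difference. The gene (ENSMUSG00000027381, chromosome 2, 128126038 to 128162547, plus strand) stood at 93.3, 99.6 and 98.4 CPM in the control replicates 1 to 3. In cKO replicates 1 to 3 it stood at 105, 104 and 117 CPM. Each cKO library was above each control library, and cKO replicate 3 was the highest. The mean was 97.1 ± 3.32 CPM in the controls and 109 ± 7.02 CPM in the cKO cells (SD, n = 3 each), a difference of 11.9% with a 95% interval of 1.89% to 22.9%. The log2 fold change was 0.16 ± 0.06 (SE), and edgeR's adjusted p was 0.209. Over the processing alternatives the adjusted p ranged from 0.124 to 0.405, and the sign was positive in each of the 17. The lowest value was 0.11, without cKO replicate 3.

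Bid encodes the BH3-only protein that caspase 8 cleaves, which links death receptors to mitochondria. It stood at 30.9, 33.3 and 32.5 CPM in the controls and at 33.2, 34.4 and 29.5 CPM in the cKO replicates 1 to 3 (ENSMUSG00000004446, chromosome 6, 120891930 to 120916853, minus strand). The cKO values enclosed the control values. Bid had a log2 fold change of 0.01 with a 95% interval of -0.17 to 0.18 (edgeR adjusted p = 0.979). Bid shares 913 bases with Bcl2l13 on the opposite strand, a gene with 2596 to 3299 reads against 1571 to 1924 for Bid. The sources used here do not say whether counting used the strand, which the library protocol marks.

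Casp8 encodes caspase 8, which is activated at death receptors and also restrains necroptosis, a form of death without caspases. It had the smallest p of the 9 genes. The gene (ENSMUSG00000026029, chromosome 1, 58795374 to 58847503, plus strand) stood at 104, 96.4 and 97.4 CPM in the control replicates 1 to 3. In cKO replicates 1 to 3 it stood at 84.4, 82.7 and 89.5 CPM. Each cKO library was below each control library. The mean was 99.2 ± 4.10 CPM in the controls and 85.5 ± 3.52 CPM in the cKO cells (SD, n = 3 each), a difference of -13.8% with a 95% interval of -21.1% to -5.78%. The log2 fold change was -0.21 ± 0.06 (SE; edgeR adjusted p = 0.0853, DESeq2 adjusted p = 0.0388). Over the alternatives the adjusted p ranged from 0.0388 to 0.31, and DESeq2 was the only 1 of 17 to call it. The log2 fold change ran from -0.25 without cKO replicate 3 to -0.14 with the length trend removed (edgeR adjusted p = 0.209). In size the difference was modest, since 37.2% of tested genes had a larger one.

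The genes whose pattern over the 6 libraries was most like that of Casp8 were S100a10, Cluap1 and Cox5b. S100a10 encodes a partner of annexin A2, Cluap1 a protein of cilia and Cox5b a subunit of cytochrome c oxidase. Likeness was the root mean square difference of log2 CPM after centring each gene, over 10425 genes with at least 5 CPM, and these 3 had values of 0.0219, 0.0220 and 0.0232. None of them passed edgeR's test, with adjusted p-values of 0.0666, 0.485 and 0.129.

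**Figure D3:**
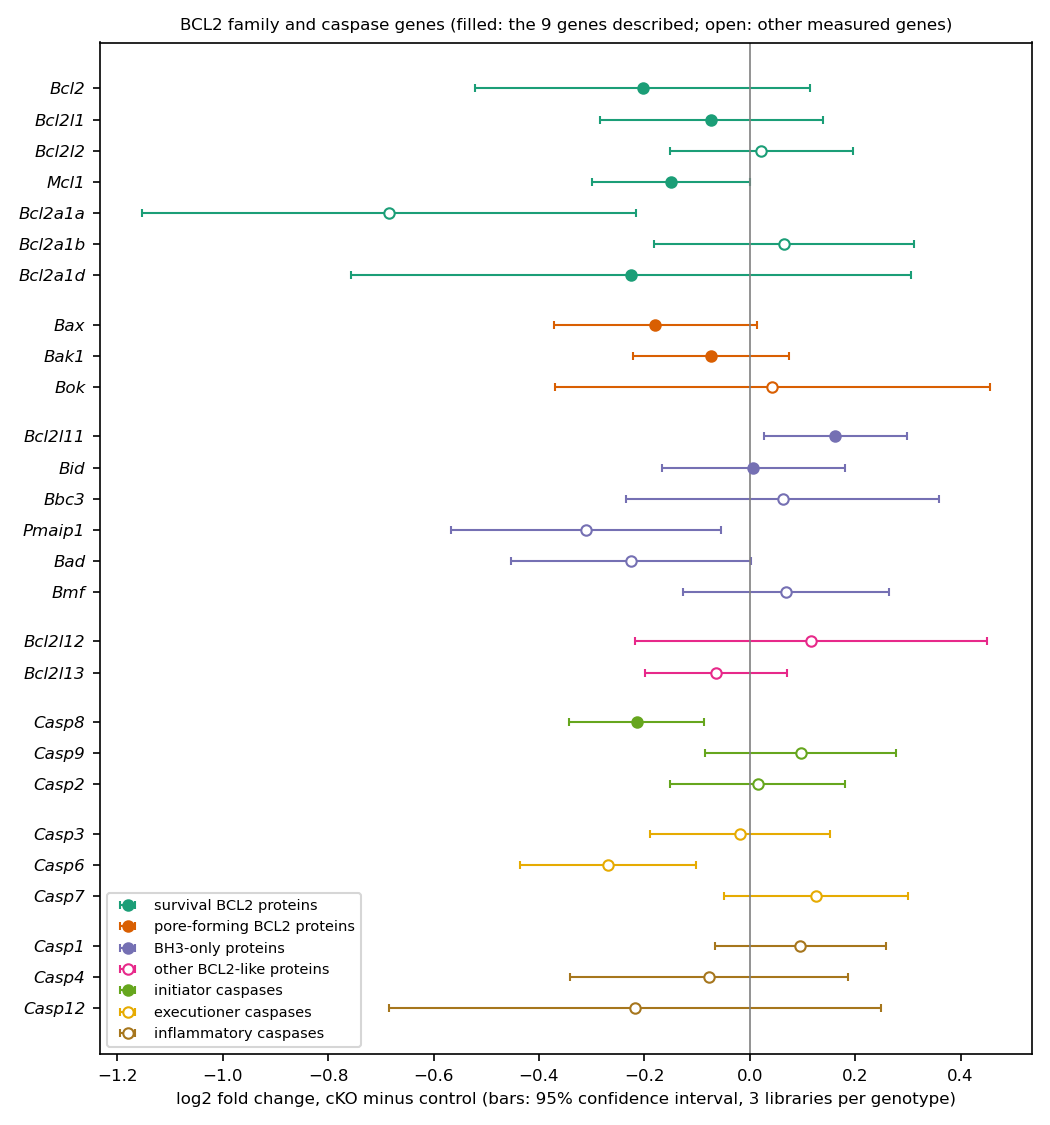
Log2 fold change (cKO minus control) of the 9 genes (filled) and of other tested BCL2 family and caspase genes (open), with 95% intervals from edgeR. The intervals of Casp8 and Mcl1 lie below 0 and that of Bcl2l11 above 0, before adjustment for the genes tested. The other 6 intervals of the 9 genes include 0. Among the open points, the intervals of Bcl2a1a, Pmaip1 and Casp6 lie below 0.

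Per transcript length the 9 genes spanned a wide range, and their order by mean was the same in both genotypes. Levels here are the authors' FPKM (fragments scaled to transcript length and library size), the scale on which genes can be compared. Mcl1 led with 161.9 FPKM in control and 146.9 FPKM in cKO cells. Bak1 followed at 33.6 and 32.2 FPKM, then Bax at 30.3 and 26.95 FPKM and Casp8 at 29.6 and 25.7 FPKM. Of these, Bak1 and Bax overlapped in the control libraries, and Bax and Casp8 overlapped in both genotypes, so these neighbours did not differ beyond their spread. Bcl2l11 stood at 10.4 and 11.8 FPKM, Bid at 7.84 and 7.93 FPKM and Bcl2l1 at 6.92 and 6.63 FPKM. The last pair overlapped in the cKO libraries. Bcl2a1d at 2.13 and 1.85 FPKM and Bcl2 at 0.893 and 0.787 FPKM closed the order.

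Summed survival transcripts outweighed summed death transcripts in each library, and Mcl1 supplied nearly all of the survival side. It made up 93.5% to 95.0% of the summed FPKM of the 4 survival genes in each library. The summed FPKM of the survival genes divided by that of the death genes was 1.44, 1.47 and 1.71 in control and 1.51, 1.36 and 1.62 in cKO replicates 1 to 3. The 2 ranges overlapped. The means were 1.54 ± 0.149 and 1.497 ± 0.133 (SD, n = 3 each), a log2 difference of -0.04, smaller than the SD of either genotype. Leaving Mcl1 out, the ratio was 0.0892 ± 0.00962 in control and 0.0886 ± 0.00707 in cKO cells. The sign of the log2 difference was not fixed, as it was 0.04 without control replicate 3 and 0.03 without cKO replicate 2.

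**Figure D4:**
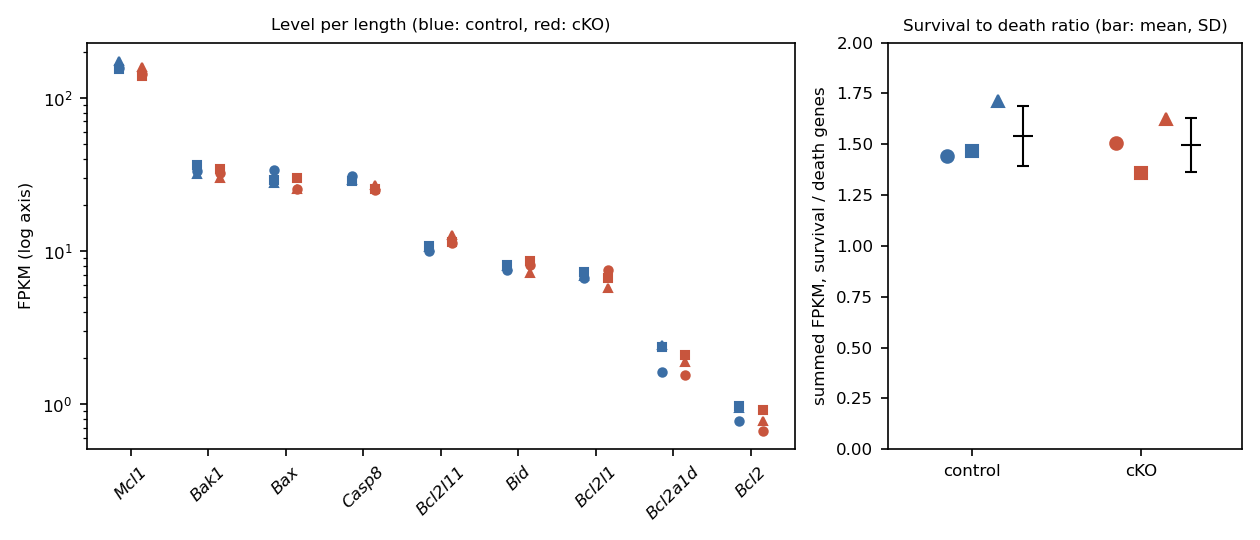
Levels of the 9 genes in FPKM on a log axis, and the ratio of summed survival to summed death FPKM, per library. Mcl1 stands above all other members, and the ratios of control (1.44 to 1.71) and cKO libraries (1.36 to 1.62) overlap.

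Beyond the 9, lists of other cell death genes held 89 genes, of which 82 were tested. Of these, 1 rose and 3 fell by edgeR's test, where 1.36% and 1.06% of all genes tested did, 41 had a positive and 41 a negative log2 fold change, and the median was -0.0041. The wider BCL2 family had 16 genes that are no members, of which 10 were tested and 0 passed (2 at an unadjusted p below 0.05, Pmaip1 and Bcl2a1a), with a median log2 fold change of 0.03. Pmaip1, which encodes the BH3-only protein NOXA, a partner of MCL1, had a value of -0.31 (adjusted p = 0.202), and Bad, another BH3-only gene, had -0.23 (adjusted p = 0.299). Bmf, a BH3-only gene like Bcl2l11, stood at 0.07, and the survival gene Bcl2l2, the pore-former relative Bok and the family members Bcl2l12 and Bcl2l13 ran from -0.06 to 0.12.

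Of 8 caspases other than Casp8, 0 passed (1 at an unadjusted p below 0.05, Casp6), with a median log2 fold change of -0.0020. Casp6, an executioner caspase, stood at 26.2 ± 0.694 CPM in the controls and 21.7 ± 0.303 CPM in the cKO cells (SD, n = 3 each). Its groups did not overlap, and its log2 fold change of -0.27 had an adjusted p of 0.0953 (edgeR). The initiators Casp9 and Casp2 had values of 0.10 and 0.02. The inflammatory caspases Casp1, Casp4 and Casp12 had 0.10, -0.08 and -0.22.

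Downstream of the mitochondrial pore, Cycs, which encodes cytochrome c, fell. It stood at 99.5, 100.4 and 111 CPM in the controls and at 79.5, 76.6 and 90.3 CPM in the cKO replicates 1 to 3, with no overlap. Its log2 fold change was -0.33 ± 0.07 (SE; edgeR adjusted p = 0.0354). Cytochrome c is also the electron carrier of the respiratory chain. Aifm1 and Diablo, which encode other proteins released from mitochondria, had values of -0.18 and -0.15 and did not pass. The call on Cycs was lost when any 1 of control replicates 1, 2 and 3 was left out (adjusted p = 0.103, 0.0758 and 0.141) and when either of cKO replicates 1 and 2 was (0.218 and 0.0861). It was also lost with library totals as scaling (0.0511) and with the length trend removed (0.0747).

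On the list of death receptors and their complex, 1 of 12 genes tested passed, where 2.42% of all genes tested did. That gene was Tnfrsf1b, which rose and encodes TNF receptor 2, a receptor that lacks a death domain. It stood at 650, 655 and 608 CPM in the controls and at 814, 831 and 767 CPM in the cKO replicates 1 to 3, with no overlap. Its log2 fold change was 0.33 ± 0.06 (SE; edgeR adjusted p = 0.0164). The call was lost when any 1 of control replicates 1, 2 and 3 was left out (adjusted p = 0.0668, 0.0593 and 0.0915) and when cKO replicate 1 was (0.126). Fas, a receptor with a death domain that recruits caspase 8, averaged 13.4 ± 0.490 CPM in the controls and 10.4 ± 0.697 CPM in the cKO libraries (SD, n = 3 each), a log2 fold change of -0.37 that did not pass (adjusted p = 0.108). Fadd, the adaptor between them, had -0.20 (adjusted p = 0.391). Tnfrsf1a, another TNF receptor gene on the list, had -0.06 (edgeR adjusted p = 0.649). On the necroptosis and pyroptosis list 0 of 6 passed (1 at an unadjusted p below 0.05, Mlkl, which encodes the pore-former of necroptosis, at -0.35, adjusted p = 0.0905), with Gsdmd at -0.18 and Gsdme at -0.16.

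Among 14 regulators of member transcription 2 fell by edgeR's test, Relb and Nfkb2, where 1.06% of all genes tested did. Both belong to the alternative NF-kB pathway, while the NF-kB genes Rela and Nfkb1 of the same list had 0.0049 and -0.07 and did not pass. Relb averaged 42.0 ± 2.18 CPM in the controls and 32.2 ± 2.89 CPM in the cKO libraries, a log2 fold change of -0.38 ± 0.08 (SE; edgeR adjusted p = 0.0321). Nfkb2 averaged 181.6 ± 1.75 CPM in the controls and 151 ± 10.5 CPM in the cKO libraries, a log2 fold change of -0.26 ± 0.06 (SE; edgeR adjusted p = 0.0428). Both calls were lost when any 1 of control replicates 1, 2 and 3 was left out, with adjusted p-values of 0.129, 0.0576 and 0.126 for Relb and of 0.136, 0.107 and 0.127 for Nfkb2. They were lost as well without either of cKO replicates 1 and 2, at 0.188 and 0.07 for Relb and 0.234 and 0.0924 for Nfkb2. Nfkb2 also missed the threshold with upper quartile scaling (0.0521) and with library totals (0.0629). Foxo3, a transcription factor known to switch on Bcl2l11, averaged 133.8 ± 2.95 CPM in the controls and 153 ± 2.71 CPM in the cKO libraries, without overlap, and its log2 fold change of 0.19 did not pass (adjusted p = 0.0854).

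Caspase inhibitors had the highest median of the death lists, 0.19, which was the value of Naip2, and 0 of 9 passed. At an unadjusted p below 0.05, 4 were higher (Naip2, Naip5, Naip6 and Birc5) and 1 lower (Birc3), where 8.38% and 8.79% of all genes tested were. Naip5, a sensor of bacterial flagellin with inhibitor repeats, averaged 29.7 ± 1.41 CPM in the controls and 36.4 ± 1.22 CPM in the cKO libraries, a log2 fold change of 0.29 (edgeR adjusted p = 0.0562), and Naip2 had 0.19 (adjusted p = 0.105). The Naip genes are near copies of each other, so their separate counts are uncertain. Birc3, which encodes the inhibitor cIAP2 and is known as an NF-kB target, had -0.20 (adjusted p = 0.191). The 3 negative values of the list were those of Birc3, Xiap (-0.08) and Birc2 (-0.07). The 6 positive ones were those of Naip1 (0.26), Naip2, Naip5, Naip6 (0.27), Birc5 (0.31) and Birc6 (0.05). The median of the list thus rested largely on the Naip copies, and its other genes lay on both sides of 0. Of 11 genes of p53 and its targets 0 passed (1 at an unadjusted p below 0.05), with Cdkn1a at -0.23 and Ccng1 at -0.09. Perp, at less than 1 CPM in each library, had -0.81 with a 95% interval of -1.91 to 0.29 (adjusted p = 0.453). Of 6 ubiquitin enzymes that act on members 0 passed (0 at an unadjusted p below 0.05). Huwe1, which marks MCL1 for destruction, had 0.12, and the ubiquitin ligase genes Cblb and Cbl had 0.08 and 0.09.

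**Figure D5:**
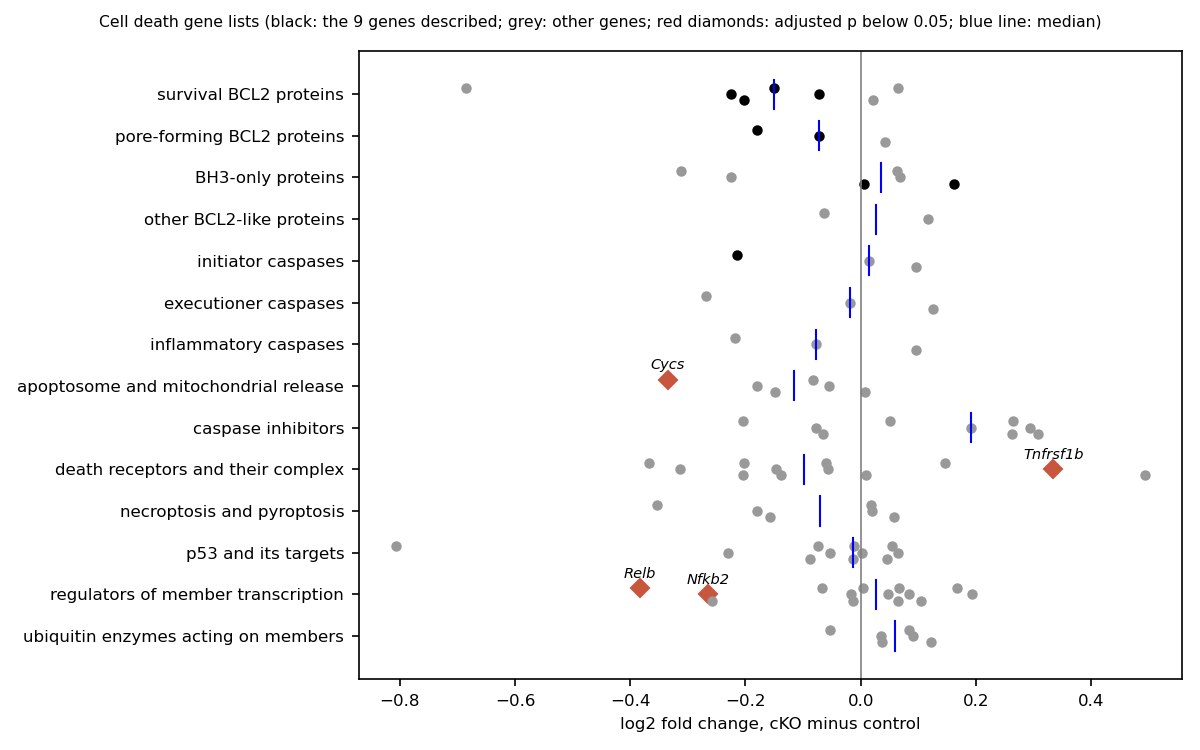
Log2 fold change (cKO minus control) of each tested gene of the cell death lists, 1 row per list, with genes that passed edgeR's test marked. The points of every list spread on both sides of 0, and the marked genes are Tnfrsf1b, Cycs, Relb and Nfkb2.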

How the data were processed

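Per the file headers, each library's deposited table lists whole-number read counts per gene, not normalized, beside the authors' FPKM values. Per the submitters' processing notes, cutadapt 1.9 and the build mm10 were used. Aligner, counting program, annotation release and use of strand: not given in the sources used here. From the counts, genotypes (3 libraries each) were tested in R 4.3.3 with edgeR 4.0.16: filterByExpr (minimum count 10, minimum total 15), TMM scaling and a robust quasi-likelihood test, with Benjamini-Hochberg adjustment over all 16843 genes tested and a threshold of 0.05. A standard error is the absolute log2 fold change over the root of the F statistic. Alternatives used DESeq2 1.42.0, limma 3.58.1, other scalings and filters, a replicate block, a length correction, summed A1 copies and each library left out. The deposited FPKM values served only to compare levels between genes. One read was worth 0.0173 to 0.0201 CPM. Libraries of a genotype differed by more than sampling noise (chi-square per degree of freedom 16.3 to 36.6).

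In simulated data for 16426 genes of this comparison, 68.9% of changes of 0.5 and 97.9% of changes of 1 on the log2 scale were recovered, and 3.49% of calls were false. The changes were planted only in genes more abundant than Bcl2a1d, so recovery for genes at its level was not measured. Changes as small as those of the 9 genes were not simulated.

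The members and lists were chosen with earlier results of these data known. Besides the members, Slc11a2, Lyz2 and the A1 copies, the named genes are, per death list, those that passed and then those of smallest raw p up to 3, and, per marker list, the 2 most abundant genes and those that passed. The 3 genes nearest in pattern are named for the member of smallest p, as none passed. Marker lists are given mainly as sums, and a few genes that the rule names are not reported here.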

Additional observations from a re-analysis of the deposited data

How the results depend on the processing

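Of the 9 members, 0 passed under each alternative run except DESeq2, which called 1. Over all genes the count of 407 became 874 with DESeq2, 673 with the replicate block, 748 with the replicate block and the length trend removed, and 59 to 624 when 1 library was left out (59 without cKO replicate 1, 624 without cKO replicate 3). Replicate numbers were not treated as pairs: deviations of same-numbered libraries correlated at -0.08, 0.05 and 0.26 over 9454 genes, and control replicate 1 correlated best with cKO replicate 2 (0.15). Calls higher in cKO cells made up 56.3% of the total, and 66.9% with upper quartile scaling, 70.2% with library totals and 69.4% with the length trend removed, but 49.2% with DESeq2 and 47.0% with the replicate block, and 50.2% to 71.4% with 1 library left out. Log2 fold changes turned sign as follows. With the length trend removed, without and with the replicate block, Bak1 had 0.0094 and 0.011 and Cd68 0.054 and 0.053. With 1 library left out the ranges were -0.18 to 0.024 for Bcl2l1, -0.039 to 0.070 for Bid, -0.044 to 0.12 for Bcl2a1b, -0.013 to 0.082 for Bcl2l2, -0.079 to 0.20 for Bok, -0.026 to 0.15 for Bmf, -0.026 to 0.055 for Casp2, -0.16 to 0.0067 for Casp4, -0.11 to 0.016 for Csf1r, -1.07 to 0.33 for Hba-a1 and -0.060 to 0.29 for Col1a1. The cause was not tested. The difference between genotypes (cKO minus control) in the log2 ratio of survival to death transcripts moved from -0.04 to -0.10 with CPM or with mean log2 levels, and was -0.04 without Bcl2a1d and -0.01 without Mcl1. Bcl2a1d rested on 79 to 139 reads per library.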

Other observations

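The quotient of Mcl1 and Bcl2l11 levels, a survival gene over the BH3-only gene whose product it binds, was picked after the values had been seen and has no test. On the authors' FPKM scale it was 15.7, 14.5 and 16.3 in control and 12.8, 12.2 and 12.5 in cKO replicates 1 to 3, or 15.5 ± 0.965 and 12.5 ± 0.304 (SD, n = 3 each), with no overlap. The same quotient for Bcl2l1 over Bcl2l11 was 0.663 ± 0.0183 in control and 0.568 ± 0.110 in cKO cells and overlapped, and that of Bax over Bcl2l1 was 4.39 ± 0.641 and 4.11 ± 0.645 and overlapped as well.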
